A study of Canis lupus familiaris with 8 samples.

Results

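The genes described here were well above background on all 4 arrays of a doxorubicin-resistant canine mammary carcinoma line and on none of the 4 arrays of the sensitive line it came from. They were chosen by these flags of the scanner software, so their presence on one line's arrays and absence from the other's is the rule and not a result. A probe spotted several times counted as above background on an array when at least 50% of its spots were. The rule found 45 named probes for 40 genes, out of 2353 named probes for 1458 genes. That is 2.74% of the named genes, and each gene is given below by its member probe with the highest mean level on the resistant arrays.

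The study used CMT-Stylo, a mammary adenocarcinoma cell line of the dog, labelled non treated, and CMT-Star, its subline that was exposed to rising doxorubicin over months until it resisted 100 nM, labelled doxorubicin treated. Doxorubicin is an anthracycline that poisons topoisomerase II and damages DNA. From each line, cells sorted as CD44+, CD24-/low and ALDH+ were profiled as cancer stem cells (CSC) beside the unsorted line (parent). The 4 groups, Star parent, Star CSC, Stylo parent and Stylo CSC, hold 2 one-colour arrays each, n = 2 in every comparison. CMT-Star is 1 subline and all cells were grown in the same serum-containing medium. No label says that the replicates were separate cultures, so errors and p-values measure only how far these arrays differ, and that may be technical.

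Each line had a slide of its own, slide 1 for Stylo and slide 2 for Star, so slide and line cannot be told apart where the lines are compared. The 75th percentile of processed signal ran from 69.2 to 88.3 on the Stylo parent arrays, from 296 to 310 on Stylo CSC, from 331 to 371 on Star parent and from 464 to 536 on Star CSC. No spot was saturated. Precision is limited by the number of arrays. Of the named epithelial markers, KRT14 was well above background in all 4 groups and CDH1 in all but Stylo parent. KRT19 was so only in Star CSC and CLDN3 only in the Stylo groups, while all 7 named fibroblast and mesenchymal markers, among them VIM and COL1A2, were well above background in all 4 groups. Their summed level was 131712% and 142707% of the 75th percentile on Stylo CSC and 67404% and 74900.2% on Stylo parent, against 30279% and 32815% on Star CSC and 46857% and 43561% on Star parent. The summed epithelial markers were 227% and 242% on Stylo CSC and 342% and 423% on Stylo parent, against 85.9% and 94.5% on Star CSC and 81.7% and 97.4% on Star parent. As percentages of each array's own 75th percentile, which was lowest on Stylo parent, both sums were thus lower on every Star array than on any Stylo array. Their part in the values below was not tested. Of 5 named leukocyte markers only CD34 was well above background in any group, and CD4 and MS4A1 were not on any array.

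A cell that becomes resistant to an anthracycline is known to use drug efflux, drug-metabolising enzymes and changed survival signalling, and a long selection also carries along genes with no known part in resistance. An array's detection limit does not separate a silent gene from one transcribed at a low level. The 40 genes fall by their known function into enzymes (12 genes), transporters and channels (9), receptors and their ligands (6), surface, junction and matrix proteins (7), and a mixed group of membrane traffic and other proteins (6).

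Few of the genes were far above the limit on every Star array, and many were close to it. The lowest Star signal of a gene was 100 scanner units or more for 4 genes (RTN1, BCHE, CES1 and SLC1A1) and under 30 for 23 genes. The lowest signals flagged as well above background were 7.91 and 8.96 on the Stylo parent arrays and 10.4 to 11.9 on the other 6. The flag has no fixed limit: outlier spots aside, the highest signal without it ran from 12.1 on Stylo parent replicate 2 to 39.2 on Star CSC replicate 2. For every one of the 40 genes the lowest Star signal lay above the highest Stylo signal, which the choice of genes largely fixes. In total RNA of a culture, fewer expressing cells and less RNA per cell cannot be told apart.

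**Figure D1:**
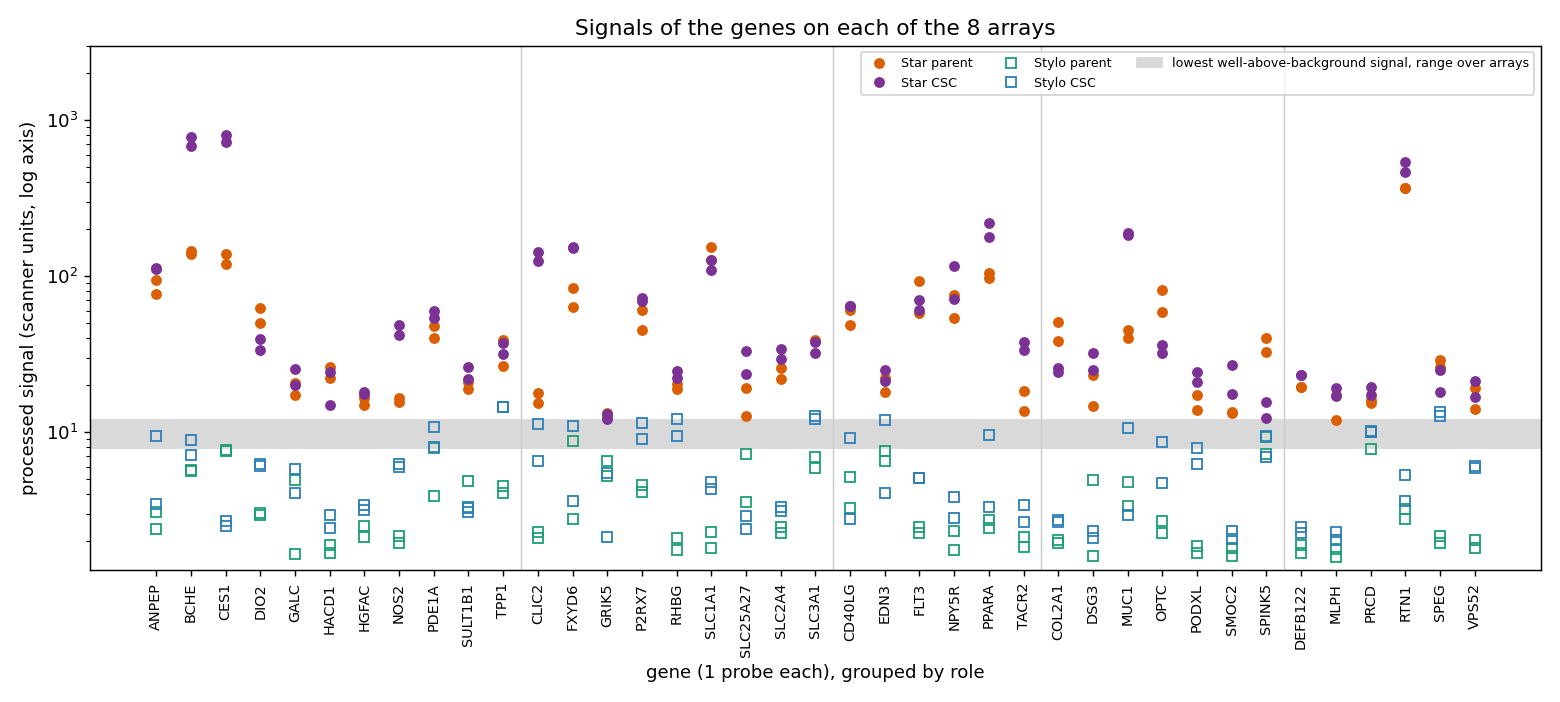
Processed signal on a log axis (scanner units, not scaled between arrays) for 39 of the 40 genes, grouped by role. Filled circles are Star arrays, open squares are Stylo arrays, and the grey band spans the lowest well-above-background signal of the 8 arrays, 7.91 to 11.9. BCHE, CES1 and RTN1 lie farthest above the band, while genes such as GRIK5, PRCD and SPINK5 lie just over the band on some or all Star arrays.

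"Detected only in the resistant line" was too strong a name for most of these genes. The scanner software also gives a weaker flag, a positive signal significantly above the local background. By that flag, 37 of the 40 probes gave a signal on at least 1 Stylo array and 15 did so on all 4, among them RTN1, BCHE and ANPEP. The flag was set on at least 1 Stylo CSC array for 35 probes and on at least 1 Stylo parent array for 25. The member probes of MLPH, SLC2A4 and SMOC2 were at background by both flags on every Stylo array. Another probe of SMOC2, given below, was well above background on both Stylo CSC arrays. With the weaker flag in the rule in place of the stronger one, 42 genes fit the pattern, but only COL2A1, MLPH, RTN1, SLC2A4 and SMOC2 were shared with the 40, COL2A1 and RTN1 through a probe other than the one described here.

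Other probes of the same genes gave a second view of the pattern, on the same arrays and so without a test. Of the 40 genes, 17 had a single named probe. Of the 23 with several, all probes shared the pattern in 4 (BCHE, P2RX7, RTN1 and SLC3A1) and did not in 19. In 14 of these 19, another probe was well above background on at least 1 Stylo array, and in 6 on all 4. The other 26 genes had no named probe well above background on any Stylo array.

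For 3 of the 6, another probe was measured in both lines and was higher in Star. FXYD6, a regulator of the sodium pump, gave 11106 and 8028 units on Star CSC, 4869 and 4181 on Star parent, 889 and 780 on Stylo CSC and 97.9 and 75.5 on Stylo parent with 1 of its other probes. The groups did not overlap by line, and the scaled levels were 11.7-fold higher in Star parent than in Stylo parent and 6.89-fold higher in Star CSC than in Stylo CSC. The second probe of CD40LG, the ligand of CD40 known from activated T cells, was 6.87-fold and 4.77-fold higher.

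The remaining 3 of the 6 had a probe that ran against the pattern. Another probe of PODXL, a sialomucin of the cell surface, gave 158 and 101 units on Stylo CSC and 138 and 183 on Stylo parent, but 41.0 and 37.1 on Star CSC and 42.9 and 39.1 on Star parent. On the scaled levels it was 17.4-fold higher in Stylo parent than in Star parent and 5.33-fold higher in Stylo CSC than in Star CSC, while the probe that placed the gene here had a bound of 1.26-fold for Star CSC over Stylo CSC. A probe of VPS52, a subunit of the GARP tethering complex of the trans-Golgi, was 9.43-fold higher in Stylo parent and 2.18-fold higher in Stylo CSC, while a further probe of it was 2.59-fold higher in Star CSC. Before scaling, the first of these probes gave 325 and 130 units on Stylo parent, which disagreed, and 115 and 83.0 on Star parent. A probe of SPEG, a striated muscle kinase, was 6.11-fold higher in Stylo parent on the scaled levels. Its unscaled signals were closer, 22.9 and 23.2 units on Stylo parent and 15.1 and 18.9 on Star parent. The member probe of SPEG had no bound in either comparison. No direction is given for these 3 genes.

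SMOC2, a secreted matricellular protein, had another probe that was well above background on both Stylo CSC arrays but neither Stylo parent array. Its member probe reached only 13.3 to 26.8 units on the Star arrays, but its other probe gave 2851 and 2577 units on Star CSC, 2937 and 2578 on Star parent, 108 and 97.8 on Stylo CSC and 8.55 and 4.95 on Stylo parent. With it SMOC2 was 16.0-fold higher in Star CSC than in Stylo CSC. Between the parents it had a bound, defined below, of 73.0-fold, since the Stylo parent arrays gave no signal well above background. ANPEP, the membrane aminopeptidase N (CD13), was 23.1-fold higher in Star parent and 5.62-fold higher in Star CSC with its second probe. That probe was well above background on 3 of 4 Stylo arrays, so only 1 of the 2 Stylo parent arrays measured it. The second probe of DIO2, the deiodinase that activates thyroid hormone, had a bound of 10.4-fold between the parents and was 2.31-fold higher in Star CSC. Its Star CSC arrays disagreed, at 315 and 68.3 units.

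**Figure D2:**
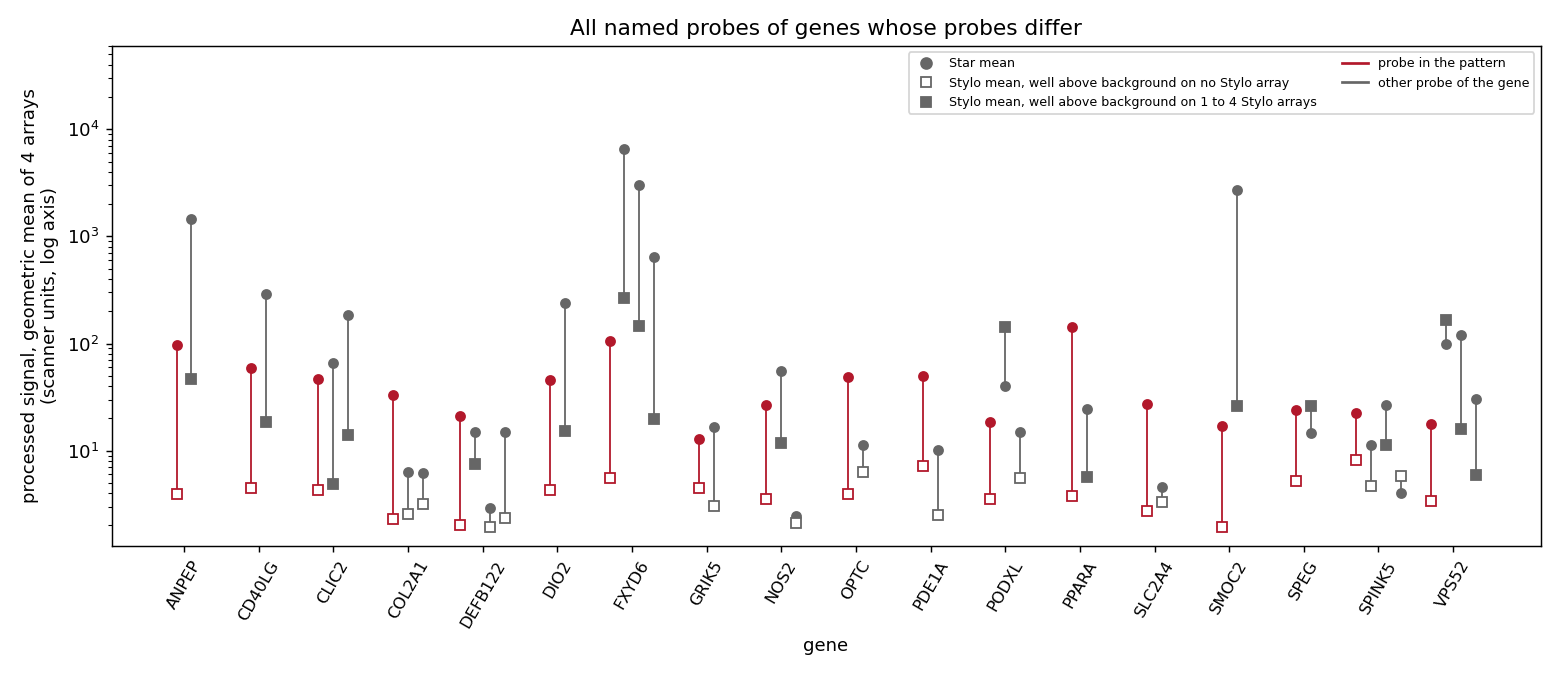
Geometric mean processed signal of the 4 Star arrays (circles) and of the 4 Stylo arrays (squares) on a log axis, for each named probe of 18 of the 19 genes whose probes differ. Red lines are probes in the pattern and grey lines other probes, and a filled square marks a probe well above background on 1 to 4 Stylo arrays; in FXYD6 and SMOC2 other probes lie well above the pattern's, and in PODXL, VPS52 and SPEG 1 other probe lies higher in Stylo.

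How far the member probes stood apart between the lines can be given only as a lower bound, because they were not measured in Stylo. The bound sets the mean of the bright group against, on each dim array, the higher of the probe's own signal and the lowest well-above-background signal, after each array was scaled to its 75th percentile. Outlier spots aside, signals without the flag reached 18.7 and 16.8 units on Stylo CSC and 14.1 and 12.1 on Stylo parent. A limit set at those signals would give smaller bounds. In Star CSC over Stylo CSC, 36 of 40 genes had a bound above 1, and 17 reached at least 2-fold. Over all probes well above background on both Star CSC arrays and neither Stylo CSC array, 28.3% reached 2-fold. In Star parent over Stylo parent, 18 genes had a bound and 7 reached at least 2-fold, against 22.5% of all such probes. Nothing is read from these shares, since the same comparison chose the genes.

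The bounds between the parents were limited by the Stylo parent arrays, which had the highest detection limit after scaling. Their lowest well-above-background signal was 10.1% and 11.4% of the array's 75th percentile, against 1.98% to 3.69% on the other 6 arrays. With each array scaled to its median, with a 75th percentile over the commonly detected probes, or with quantile normalization, 11 genes reached 2-fold in the parent comparison. GRIK5, HGFAC, SPEG and SPINK5 had no bound in either comparison. All 7 genes that reached 2-fold between the parents (among them RTN1, BCHE, SLC1A1, CES1, PPARA and ANPEP) also did so between the sorted cells. The scaled limit was lower on Stylo CSC and both comparisons chose the genes, so nothing is read from this overlap.

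**Figure D3:**
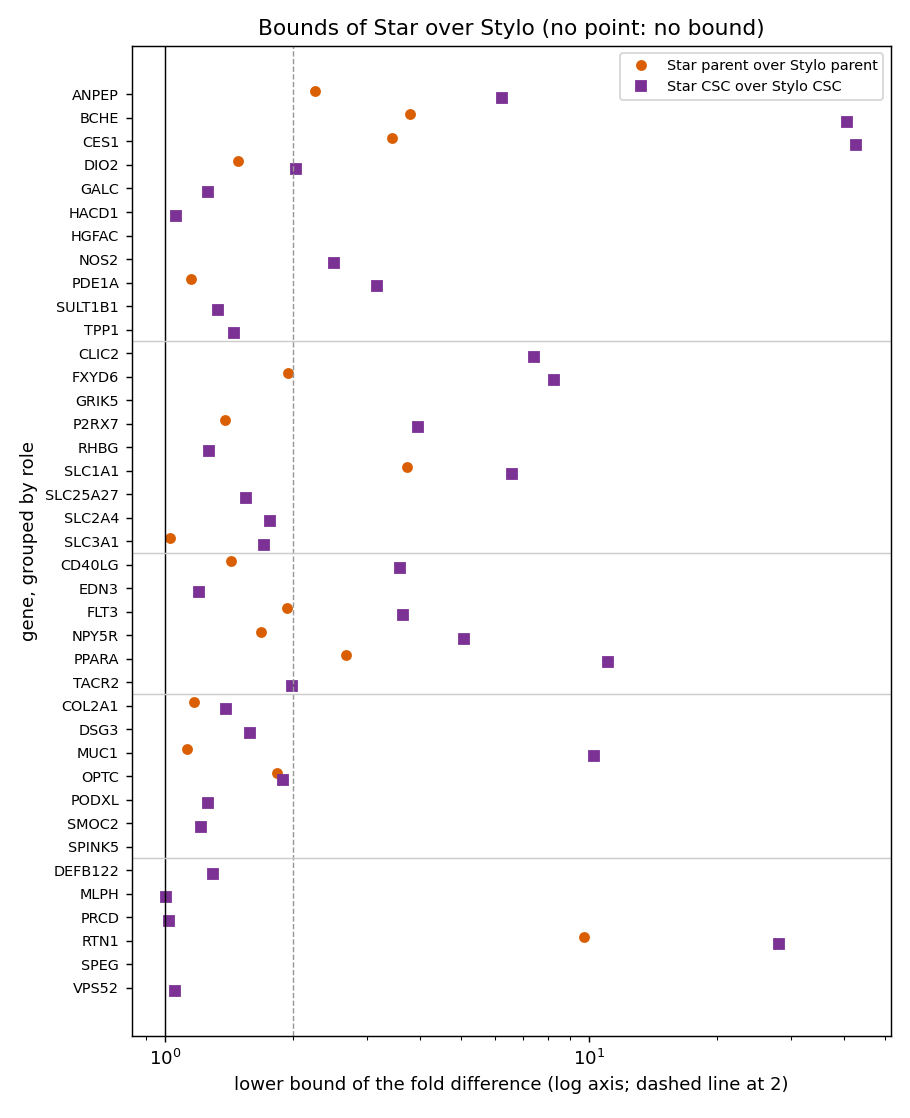
Lower bounds of the fold difference for 39 of the 40 genes, Star parent over Stylo parent (circles) and Star CSC over Stylo CSC (squares), on a log axis with a dashed line at 2-fold; a missing point means no bound above 1. Among these member probes, CES1 and BCHE have the largest bounds between the sorted cells, 42.6 and 40.7, and RTN1 the largest between the parents, 9.72.

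Among the member probes of the enzymes, those of the ester hydrolases stood first. CES1 (NM_001003085), the carboxylesterase of the endoplasmic reticulum that cleaves ester drugs and lipids, gave 807 and 725 units on Star CSC and 139 and 121 on Star parent, but 2.69 and 2.51 on Stylo CSC and 7.58 and 7.70 on Stylo parent. Its bounds were 42.6-fold between the sorted cells and 3.43-fold between the parents. BCHE (NM_001313861), butyrylcholinesterase, a hydrolase of choline esters, gave 776 and 686 on Star CSC, 146 and 139.6 on Star parent, 7.17 and 8.86 on Stylo CSC and 5.60 and 5.69 on Stylo parent. The bounds were 40.7-fold and 3.78-fold, while its second probe in the pattern had 2.94-fold between the sorted cells and none between the parents. Each gene was highest on the sorted resistant cells.

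ANPEP gave 111 and 113 on Star CSC, 93.9 and 77.0 on Star parent, 9.49 and 3.46 on Stylo CSC and 3.05 and 2.38 on Stylo parent, for bounds of 6.22-fold and 2.25-fold. Both sorted Star arrays of ANPEP lay above the unsorted ones before scaling. After scaling the difference was -0.12 ± 0.42 (log2, SE) and was not called.

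DIO2 gave 39.4 and 33.8 on Star CSC, 62.8 and 50.1 on Star parent, 6.02 and 6.24 on Stylo CSC and 3.03 and 2.93 on Stylo parent, and was higher on both unsorted Star arrays than on the sorted ones. NOS2, the inducible nitric oxide synthase, ran from 15.6 to 48.4 on the Star arrays with a bound of 2.50-fold between the sorted cells. PDE1A, a calmodulin-dependent phosphodiesterase of cyclic nucleotides, ran from 39.9 to 59.5 with a bound of 3.16-fold. The rest of the enzymes were near the limit. They were the sulfotransferase SULT1B1 (18.98 to 26.2 units on the Star arrays), the lysosomal hydrolases GALC (17.3 to 25.4) and TPP1 (26.4 to 39.2), the fatty acid elongation enzyme HACD1 (14.97 to 26.1) and HGFAC (14.9 to 18.2), the protease that activates hepatocyte growth factor. TPP1 had 14.4 and 14.5 units on the Stylo CSC arrays without being flagged as well above background there.

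Among transporters, SLC1A1, a glutamate and aspartate transporter, was higher on Star in both comparisons. It gave 127 and 110.1 units on Star CSC, 155 and 127 on Star parent, 4.75 and 4.31 on Stylo CSC and 1.81 and 2.29 on Stylo parent. Its bounds were 6.59-fold between the sorted cells and 3.72-fold between the parents. CLIC2, a chloride intracellular channel protein, gave 142 and 125 on Star CSC but only 17.8 and 15.3 on Star parent, with 11.3 and 6.54 on Stylo CSC and 2.08 and 2.29 on Stylo parent. Its bound was 7.43-fold between the sorted cells, with none between the parents.

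The member probe of FXYD6 gave 151 and 153 on Star CSC, 84.4 and 63.8 on Star parent, 3.59 and 10.998 on Stylo CSC and 8.82 and 2.78 on Stylo parent, with bounds of 8.24-fold and 1.95-fold. P2RX7, the ATP-gated cation channel, ran from 44.8 to 72.8 on the Star arrays and had a bound of 3.96-fold between the sorted cells. The remaining transporters and channels stayed nearer the limit. SLC3A1, the heavy subunit of the cystine transporter, ran from 32.4 to 39.1, the insulin-responsive glucose transporter SLC2A4 from 21.8 to 34.1 and the mitochondrial carrier SLC25A27 from 12.8 to 33.2. The ammonium transporter RHBG ran from 18.9 to 24.7 and the kainate receptor subunit GRIK5 from 12.1 to 13.2.

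Of the member probes of receptors and ligands, that of PPARA, the nuclear receptor that drives fatty acid oxidation, had the largest bounds. It gave 221 and 179 units on Star CSC, 105 and 96.9 on Star parent, 9.54 and 3.29 on Stylo CSC and 2.74 and 2.44 on Stylo parent. The bounds were 11.1-fold between the sorted cells and 2.68-fold between the parents, and its second probe was well above background on 1 Stylo array. NPY5R, a receptor of neuropeptide Y, ran from 53.7 to 117 on the Star arrays with a bound of 5.08-fold between the sorted cells. FLT3, a receptor tyrosine kinase of blood progenitors, ran from 58.1 to 92.5 with 3.63-fold, and CD40LG from 48.4 to 64.4 with 3.59-fold. The summed level of the 5 leukocyte markers, FLT3 and CD40LG not among them, was 38.7% and 40.7% of the 75th percentile on Star CSC and 91.0% and 96.0% on Star parent, against 25.7% and 27.1% on Stylo CSC and 71.2% and 88.2% on Stylo parent. Their part in these values was not tested. TACR2, the neurokinin A receptor (13.6 to 37.9), and the vasoactive peptide EDN3 (18.0 to 25.1) were near the limit.

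Of the member probes of surface and matrix genes, that of MUC1, the transmembrane mucin of glandular epithelium, had the largest bound between the sorted cells. It gave 183 and 188 units on Star CSC, 45.0 and 40.1 on Star parent, 2.94 and 10.6 on Stylo CSC and 3.34 and 4.75 on Stylo parent, with bounds of 10.2-fold and 1.13-fold. OPTC and COL2A1 were higher on the unsorted than on the sorted Star cells. OPTC, opticin, a small leucine-rich matrix protein, gave 36.3 and 32.0 on Star CSC, 81.2 and 59.2 on Star parent, 4.73 and 8.64 on Stylo CSC and 2.24 and 2.68 on Stylo parent. COL2A1, the type II collagen of cartilage, gave 24.3 and 25.6, 50.8 and 38.1, 2.63 and 2.71, and 2.03 and 1.94 in the same order. Its other 2 named probes stayed below the well-above-background flag on all 8 arrays, as did the other probe of OPTC.

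SPINK5, an inhibitor of serine proteases known from stratified epithelium, gave 12.4 and 15.5 units on Star CSC, 40.2 and 32.5 on Star parent, 9.38 and 6.90 on Stylo CSC and 9.31 and 7.23 on Stylo parent. Its sorted Star cells thus lay close to its Stylo arrays. DSG3, a desmosomal cadherin, ran from 14.7 to 32.1 on the Star arrays and PODXL from 13.9 to 24.4.

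In the mixed group RTN1 (NM_001007131), a reticulon that shapes the endoplasmic reticulum, had the largest bound of any member probe between the parents. Probes of SMOC2 and DIO2 outside the pattern had larger ones, given above. The member probe of RTN1 gave 538 and 469 units on Star CSC, 368 and 365 on Star parent, 5.34 and 3.61 on Stylo CSC and 2.75 and 3.23 on Stylo parent. The bounds were 28.0-fold between the sorted cells and 9.72-fold between the parents. Its other 2 named probes shared the pattern with lower bounds, 9.66-fold and 5.82-fold between the sorted cells and 2.94-fold and 1.37-fold between the parents. MLPH, melanophilin, which ties Rab27a vesicles to myosin (11.9 to 19.1), the defensin DEFB122 (19.3 to 23.3), the retinal disc protein PRCD (15.3 to 19.6), SPEG (18.0 to 29.2) and VPS52 (14.1 to 21.3) were all near the limit.

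Just inside the rule's edge lay SPINK5, given above, SPEG and PRCD. SPEG gave 24.9 and 18.0 units on Star CSC, 29.2 and 26.0 on Star parent, 13.5 and 12.6 on Stylo CSC and 2.17 and 1.95 on Stylo parent. PRCD gave 19.6 and 17.2, 16.1 and 15.3, 10.1 and 10.2, and 9.94 and 7.78 in the same order. After scaling, the gap of these genes closed or turned in at least 1 comparison: SPINK5 stood at -3.28 in Star parent and -3.25 in Stylo parent (log2 of signal over the 75th percentile), SPEG at -4.56 in Star CSC and -4.54 in Stylo CSC, and PRCD at -4.48 in Star parent and -3.22 in Stylo parent. The gap between the parents also turned for GRIK5 (-4.77 in Star, -3.75 in Stylo), EDN3 (-4.14, -3.47) and SLC25A27 (-4.48, -3.94). Another 25 named genes missed the pattern on exactly 1 array, 10 of them on a Stylo CSC array, 7 on a Star parent array and 4 each on a Star CSC and a Stylo parent array. The 3 with the widest unscaled gap between the lines all failed on a Stylo CSC array. NTF4, a neurotrophin, gave 376 and 347 on Star CSC, 238 and 164 on Star parent, 14.6 and 25.1 on Stylo CSC and 2.63 and 2.42 on Stylo parent. It was left out by Stylo CSC replicate 2 alone. RECK, a membrane inhibitor of matrix metalloproteinases, gave 136 and 126, 108 and 118, 15.5 and 20.2, and 6.58 and 4.23 in the same order and was left out by the same array. CTSS, the lysosomal protease cathepsin S, gave 115 and 107, 57.2 and 54.9, 13.6 and 9.84, and 2.16 and 2.21 and was left out by Stylo CSC replicate 1.

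Sorted and unsorted resistant cells were compared with a test, because the rule treats all Star arrays alike and does not use the difference between them. CES1, BCHE and CLIC2 were higher in Star CSC, and SPINK5, OPTC, COL2A1 and DIO2 were lower. Thus 3 of the 40 genes (7.5%) were called higher and 4 (10%) lower, each at a Benjamini-Hochberg adjusted p under 0.05 over all tested probes and at least 2-fold in limma. The same calls took 3.22% of the 26825 tested probes as higher and 6.51% as lower, 9.72% in all. Among probes well above background on all Star arrays they took 2.65% and 5.37%, 8.02% in all. Among the 928 probes of the pattern, named or not, 4.63% were called higher and 5.82% lower, 10.5% in all. The median log2 difference of the 40 genes was -0.21, with 14 of 40 above 0, beside -0.10 over all tested probes and -0.25 over the 928.

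CLIC2 rose by 2.51 ± 0.27 (log2, SE; 5.68-fold; limma adjusted p = 0.00271). Its other 2 named probes, which are not in the pattern, gave 2.76 ± 0.32 and 2.62 ± 0.39 and were called too. CES1 rose by 2.06 ± 0.14 (4.16-fold; limma adjusted p = 0.000784). BCHE rose by 1.85 ± 0.18 (3.60-fold; limma adjusted p = 0.00202), while its second probe stood at 0.79 ± 0.42 and was not called. For all 3 genes both Star CSC arrays lay above both Star parent arrays, which a call with 2 arrays a group largely fixes.

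SPINK5 fell by 1.89 ± 0.21 (log2, SE; 3.72-fold; limma adjusted p = 0.00303), and another of its probes, outside the pattern, was also called lower at -1.85 ± 0.54. OPTC fell by 1.54 ± 0.34 (2.90-fold; limma adjusted p = 0.0228), COL2A1 by 1.33 ± 0.16 (2.51-fold; 0.00397) and DIO2 by 1.13 ± 0.13 (2.19-fold; 0.00352). In all 4 genes both Star CSC arrays lay below both Star parent arrays, which the call again largely fixes. The call of OPTC was lost without any single Star array (limma adjusted p from 0.0625 to 0.101). Normexp background correction with an offset of 50 kept only BCHE and CES1, and CLIC2 then stood at 0.80 and SPINK5 at -0.91. A test against a minimum of 2-fold kept only CES1 and CLIC2. DIO2 fell under the fold limit with median scaling (-0.90), quantile normalization (-0.86) and cyclic loess (-0.77), and COL2A1 with cyclic loess (-0.92).

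MUC1 had the largest difference that did not pass, 1.62 ± 0.62 (log2, SE; limma adjusted p = 0.1001). The spread of each probe was shared over all 8 arrays, and on the Stylo arrays this probe was not well above background, with 2.94 and 10.6 units on the 2 Stylo CSC arrays. Fitted on the 4 Star arrays alone, MUC1 stood at 1.62 ± 0.13 (limma adjusted p = 0.0116) and was called. It was also called without either Stylo CSC array (limma adjusted p = 0.0267 and 0.0265).

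Several genes had differences close to 0 with the probe described here. RTN1 stood at -0.05 ± 0.24, ANPEP at -0.12 ± 0.42, NPY5R at 0.01 ± 0.32 and P2RX7 at -0.07 ± 0.21 (log2, SE), none of them called. The other 2 probes of RTN1, also in the pattern, stood at 0.14 ± 0.35 and 0.51 ± 0.15. The second had a limma adjusted p of 0.0495 but lay below the fold limit. With 2 arrays a group these values do not show equal levels. FXYD6 stood at 0.54 ± 0.63 with its member probe and at 0.54 to 0.61 with its other 3, whose SE was 0.09 to 0.14. Those 3 lay below the fold limit with a limma adjusted p of 0.00775 to 0.0388. As for MUC1, the spread of each member probe was shared with Stylo arrays where it was not well above background. For FXYD6 the member probe's SD (log2) was 1.19 on Stylo CSC, 0.93 on Stylo parent, 0.16 on Star CSC and 0.17 on Star parent. Of the remaining genes, NOS2 (0.98 ± 0.13) lay just under the fold limit and was called with median scaling (1.21), quantile normalization (1.16), cyclic loess (1.37) and a 75th percentile over the commonly detected probes (1.01). Below the fold limit were also SPEG (-0.89 ± 0.13), HACD1 (-0.84 ± 0.20), SLC1A1 (-0.75 ± 0.22), SLC3A1 (-0.66 ± 0.10) and TACR2 (0.67 ± 0.17), whose limma adjusted p was 0.00605 to 0.0498.

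By role, the enzymes had 2 genes called higher and 1 lower of 12, the transporters and channels 1 higher of 9, the surface, junction and matrix genes 3 lower of 7, and the other 2 groups none. The member counts per role are too small to compare.

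**Figure D4:**
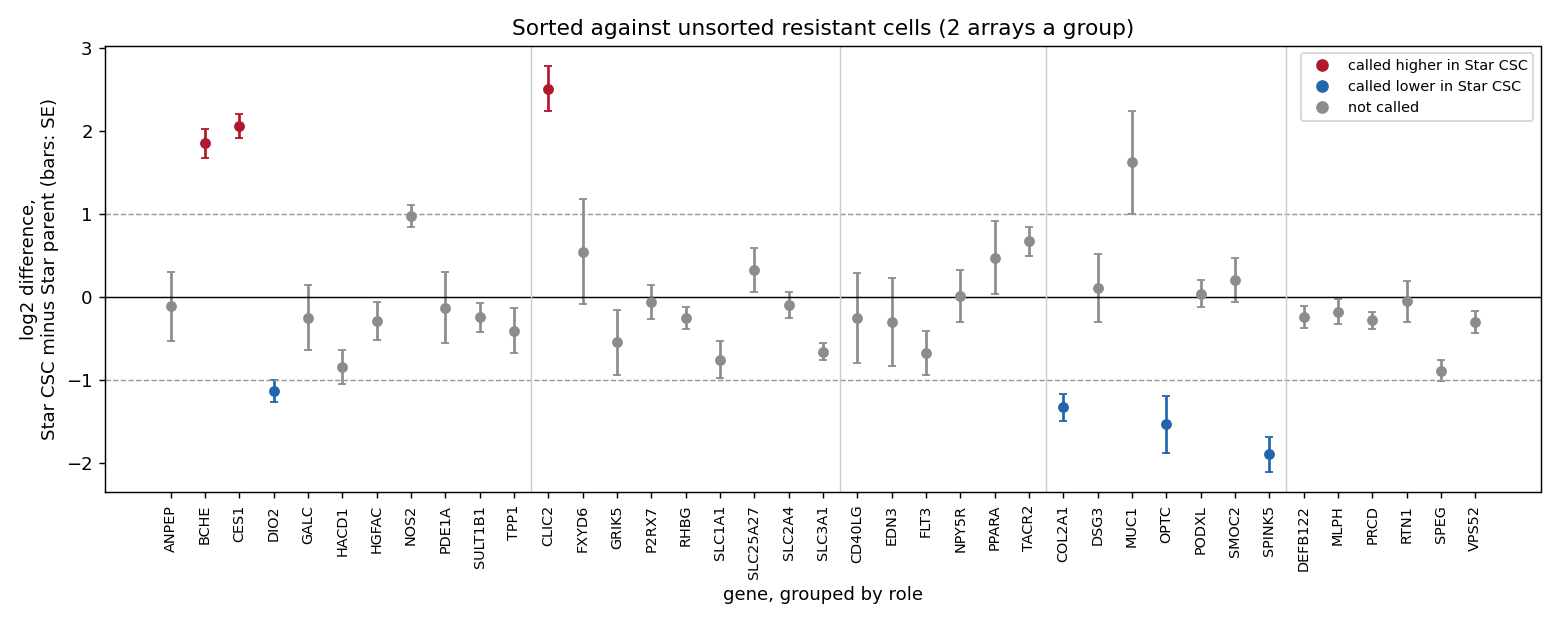
Log2 difference between Star CSC and Star parent for 39 of the 40 genes, with the SE of the fit as bars and dashed lines at 2-fold in either direction (2 arrays a group). CLIC2, CES1 and BCHE are called higher, SPINK5, OPTC, COL2A1 and DIO2 lower, and MUC1 has a large difference with a wide SE.

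Of the 40 genes, 12 (30%) were on at least 1 of the broader gene lists, beside 392 of the 1452 named genes that the rule could take (27%). The lists are partial: SLC1A1, SLC3A1 and SLC25A27 are solute carriers, CLIC2 and GRIK5 channel proteins and GALC a lysosomal enzyme, and none of these is on a list. CES1, which cleaves ester drugs, and the vasoactive peptide EDN3 are on none either. Of the 48 named G protein-coupled receptors and ligands on the list, NPY5R and TACR2 were members, and of the 26 tested genes of that list 2 were called higher and 7 lower in Star CSC against Star parent. The matrix list had COL2A1 and SMOC2 among 26 named genes, with 1 of 22 tested called higher and 7 lower. Drug transporters and drug-metabolising genes had SULT1B1 among 25, with 2 of 14 called higher and 2 lower. The ion channel list had P2RX7 among 24, with 1 of 12 called lower and none higher, and the solute carrier list SLC2A4 among 17, with 1 of 9 called higher and 2 lower. None of the 6 named interferon response genes was a member, and all 6 were called higher in Star CSC. No member was among the 23 named apoptosis and DNA damage genes. Over all 972 named genes tested, 50 were called higher and 72 lower.

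The 40 genes were placed in the gene order of the RefSeq annotation of assembly UU_Cfam_GSD_1.0. The closest pair was DIO2 and GALC, with 6 protein-coding genes between them, followed by RHBG and MUC1 with 34. One member lay on the chromosome of ABCB1, the P-glycoprotein drug pump, with 69 protein-coding genes between them. Spacing was taken for the members only, not for other named genes, so nothing is read from these distances.

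The reverse pattern was rarer. Only 6 named genes were well above background on all Stylo arrays and no Star array, against the 40 described here. Over all 43603 probes the counts were 104 (0.239%) and 928 (2.13%). Spots well above background made up 47.4% and 46.7% on Stylo parent, 55.5% and 56.1% on Stylo CSC, and 57.6% to 60.7% on the Star arrays. The part of this difference in the counts was not tested. The larger group in which Stylo parent alone was missing held 2722 probes, which were well above background on both arrays of each of the other 3 groups. By the parent arrays alone, 172 named genes would fit the rule, and by the sorted cells alone 78. With both Stylo parent arrays left out of the rule, an alternative chosen after the data were seen, 47 genes fit it.

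**Figure D5:**
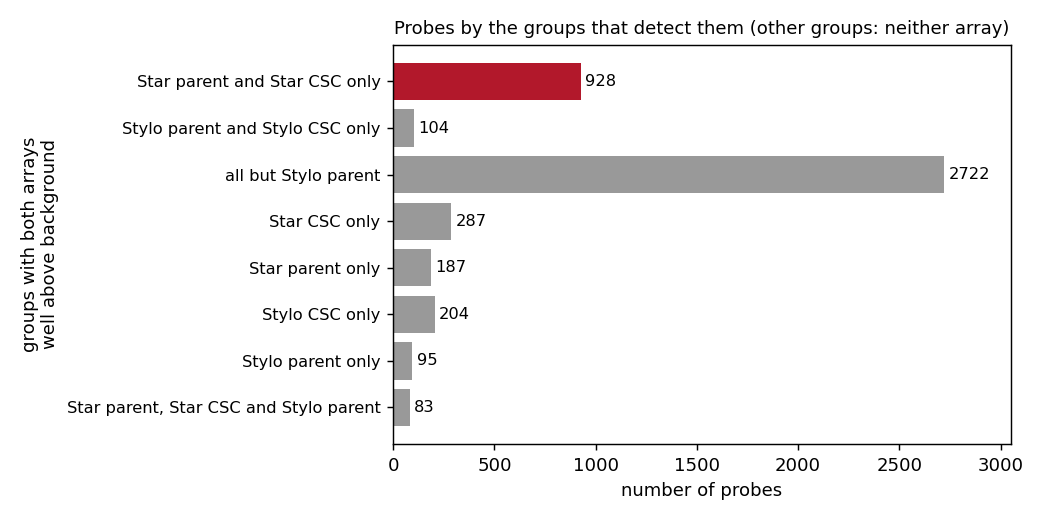
Number of probes that were well above background on both arrays of the named groups and on neither array of the other groups, leaving out probes seen in all groups or in none. The pattern described here (red) holds 928 probes, its reverse 104, and the pattern missing only Stylo parent 2722.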

How the data were processed

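The authors' scanner files were made with Agilent Feature Extraction 11.5.1.1 and hold a processed intensity for each spot, with flags, per the file headers. A deposited table of the whole series holds log2 values whose making is not given in the sources used here, and served as an alternative only. Groups and replicate numbers come from the sample titles. Control and outlier spots were left out, replicate spots were averaged as log2 intensity, and the 75th percentile of each array was then taken off. Signals quoted per array are processed intensities before scaling, averaged over all spots on the log scale. The flag of a probe was read over all its spots.

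Probes were named by matching accessions without version to the RefSeq gene table of assembly UU_Cfam_GSD_1.0, which named 2353 of 43603 probes. The table was used for names and gene order only. 2 further genes that fit the flags, and the values of 1 of the 40 genes, which stays in the counts, are not reported here.

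limma 3.58.1 in R 4.3.3 was fitted to 4 group means on 8 arrays (lmFit, eBayes) over the 26825 probes that 1 or more groups had well above background on both arrays, with two-sided Benjamini-Hochberg adjusted p-values. The fit was tested on simulated data. All other members are named, and values on each array are given for the 8 largest bounds of each comparison, all called genes and the 3 genes on each side of the rule's edge. The members and lists were chosen with earlier results of these data known. Same-numbered arrays shared only a number (correlation of deviations -0.07 to 0.07). Alternatives covered scaling, background correction, filters, thresholds, arrays left out and the flag.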

Additional observations from a re-analysis of the deposited data

How the results depend on the processing

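With 7 genes called between Star CSC and Star parent, 2 were called with normexp background correction, 2 with the test against a minimum of 2-fold, and 13 without a fold limit. Over the other scalings, filters, variance models and the deposited matrix the count stayed between 6 and 9, and leaving out 1 array gave 6 to 8. The fit with the replicate block also called 7, the same genes, so the block changed no call. No called gene changed sign under any alternative run. The number of genes in the pattern was 172 by parent arrays alone, 78 by sorted arrays alone and 928 probes when unnamed ones are counted, and leaving out 1 array gave 40 to 46. It was 38 when all spots had to agree, which lost HGFAC and PRCD. Bounds of at least 2-fold between the parents rose from 7 genes to 11 with quantile normalization, median scaling or a 75th percentile over the commonly detected probes, and ran from 7 to 9 with 1 array left out; between the sorted cells they ran from 16 to 20 under every alternative run. Signal over background limits the Stylo side of every value: a member probe has only a bound there, and 22 genes have none between the parents.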

Other observations

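Most probes with the same pattern carry no gene name here, as do most probes of the array. Of the 928 probes 45 are named, beside 2353 of all 43603. Of the 928, 444 have Ensembl transcript accessions, 144 are TC consensus entries, 82 have model RefSeq accessions (XM), 49 curated RefSeq accessions (NM) and 209 others. Over the whole array the same kinds hold 19070, 6181, 3746, 2441 and 12165 probes. Named genes are thus a small part of what was well above background on the Star arrays alone, as they are of the array.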
